A study of Mus musculus with 6 samples.

Results

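The 31 immediate early and activity genes described here were a fixed list of symbols, taken from 54532 genes measured in the cervical spinal cord of mice. All 31 symbols matched 1 Ensembl identifier each. They were separated into 10 genes used mainly as readouts of neuronal firing (Arc, Npas4, Homer1, Egr2, Egr3, Egr4, Fosb, Nr4a1, Nr4a2 and Nr4a3) and 21 general immediate early genes (Fos, Fosl1, Fosl2, Jun, Junb, Jund, Egr1, Ier2, Ier3, Ier5, Dusp1, Dusp5, Dusp6, Btg2, Klf2, Klf4, Atf3, Gadd45b, Gadd45g, Maff and Arl4d). The separation follows where the genes are best known from, and it is not clean, since Fos and Egr1 are induced in firing neurons too.

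RNA was sequenced from 6 C57BL/6 mice, 1 library per mouse. In 3 mice a psoriasis-like dermatitis was induced with 50 mg of cream holding 5% imiquimod, an agonist of Toll-like receptor 7, and the other 3 received the same mass of vehicle cream. The cream went onto shaved nape skin daily for 2 days, so shaving and handling were common to both groups. The cord tissue was whole, so its RNA pools neurons, glia, vessels, roots and membranes. The time between the last cream and tissue removal is not given in the sources used here, and immediate early transcripts live for minutes to hours.

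Immediate early genes are switched on without new protein synthesis, by transcription factors that already sit in the cell. In the textbook scheme, growth factor and cytokine receptors act through the MAP kinase cascade on SRF and its Elk partners, and calcium entry and cyclic AMP act on CREB. Most of the products are transcription factors (the Fos, Jun, Egr, Nr4a and Klf families), and others feed back on the kinases (the Dusp phosphatases) or act at synapses (Arc and the short form of Homer1). In spinal cord, Fos in dorsal horn neurons is widely used as a marker of input from skin, while glia and endothelium induce many of the general genes in inflammation.

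The depth, as fragments recovered from the deposited values, was 18174411 to 20672881 per vehicle library and 21242415 to 23200996 per imiquimod library, and every imiquimod library was deeper (p = 0.1 by a two-sided exact permutation test, the lowest value possible with 3 libraries a group). The tissue label was checked on markers. Hox genes of the spinal segments summed to 166 to 179 FPKM (fragments per kilobase of exon, corrected for library depth) in vehicle and 189 to 215 in imiquimod cords, and 6 of the 7 were detected. Every imiquimod Hox sum thus lay above every vehicle sum (two-sided exact permutation p = 0.1). Hoxb8 was called higher in the limma fit described below, and log2 changes of the tested Hox genes ran from -2.33 to 0.54. A difference between groups in the dissected level was not tested. Forebrain markers summed to 1.11 to 1.80 FPKM over all 6 libraries. Oligodendrocyte markers summed to 7503 to 8026 FPKM in vehicle cords and 6326, 6331 and 4862 in imiquimod replicates 1, 2 and 3, and imiquimod replicate 2 had the lowest Schwann cell marker sum, 50.9 FPKM against 151 and 246. Counts of members called without each library are therefore given below.

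The control sequences just upstream of some members are shown because CREB and SRF sites are what the family is known for. Promoters came from RefSeq's table for GRCm38.p6, which matched 26 of the 31 members. Letters were searched on both strands over the 250 bases before the start. The CRE half-site (TGACG), the core that CREB binds, was found in 18 of 26 members, against 19.8% of the 27025 genes with a promoter. The full CRE (TGACGTCA), which contains the half-site, was found in 4 of 26 (Maff, Dusp1, Btg2 and Arl4d), against 1.77% of all genes. The CArG box, the site of SRF, was searched as CCWWWWWWGG, with W for A or T. It was in 2 of 26 (Dusp5 and Egr2), against 1.62%. Looser forms and sites further upstream were not searched, and Arc, Egr1, Egr3, Fosl1 and Ier2 had no promoter entry. The count therefore says nothing of SRF sites outside these windows. The AP-1 site (TGANTCA) was in 0 of 26, against 7.82%. A match is a run of letters and does not show binding.

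Below are the last 120 bases before the start for 3 members that rose (Maff, Atf3 and Junb), for Fos and for the neuronal member Nr4a1, and 84 bases for Dusp5, each 5′ to 3′ on the gene's strand in GRCm38.p6. Every gene shown holds a half-site. Where a gene had several promoter entries (3 for Maff), the entry with a half-site nearest the start was printed. The called members Dusp6, Jund, Ier3 and Ier5 had no half-site in the 250 bases searched and are not shown. Capitals mark CRE half-sites on either strand and, in Dusp5, also the pair of CArG boxes, which lie side by side. The Maff capitals are a full CRE. The starts are RefSeq's, and those of Maff, Atf3 and Nr4a1 lie inside the span that GENCODE M21 gives the gene, since each has further starts. In Atf3 the last 7 bases, which hold the whole marked half-site, are already exon in GENCODE, so that site lies upstream of RefSeq's start only. In Dusp5 the last bases before RefSeq's start are left out because GENCODE counts them to its first exon, and the printed bases lie in an exon of an antisense gene.
Maff, chr15:79347400-79347519, plus strand: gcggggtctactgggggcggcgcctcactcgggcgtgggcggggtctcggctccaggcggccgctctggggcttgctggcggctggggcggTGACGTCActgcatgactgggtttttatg
Atf3, chr1:191183334-191183453, minus strand: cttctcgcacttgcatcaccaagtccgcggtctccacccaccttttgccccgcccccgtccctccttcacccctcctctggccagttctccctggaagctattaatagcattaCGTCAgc
Junb, chr8:84978749-84978868, minus strand: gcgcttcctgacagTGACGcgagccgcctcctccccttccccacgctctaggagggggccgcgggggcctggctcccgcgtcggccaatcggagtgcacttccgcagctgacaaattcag
Dusp5, chr19:53529025-53529108, plus strand: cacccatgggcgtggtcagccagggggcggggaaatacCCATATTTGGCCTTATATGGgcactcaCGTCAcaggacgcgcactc
Fos, chr12:85473770-85473889, plus strand: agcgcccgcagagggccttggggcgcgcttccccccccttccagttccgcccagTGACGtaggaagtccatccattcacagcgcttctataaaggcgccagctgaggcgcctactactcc
Nr4a1, chr15:101266726-101266845, plus strand: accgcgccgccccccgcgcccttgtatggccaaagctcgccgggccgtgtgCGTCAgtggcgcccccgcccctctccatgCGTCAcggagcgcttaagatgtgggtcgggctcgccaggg
Counting back from -1, the base before the start, the capitals begin at -29 in Maff, -7 in Atf3, -106 in Junb and -66 in Fos, and at -69 and -40 in Nr4a1. The Dusp5 half-site begins at -55. The half-site was in 4 of the 8 called members that had a promoter entry and in 14 of the other 18 members, a description of these windows with no test.

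All 31 members entered the test, because each had a mean of at least 0.5 FPKM in a group, and in fact all 31 had it in both groups (lowest group mean 0.537 FPKM, for Nr4a3 in vehicle cords). The filter therefore let no member in through its higher group alone. The comparison asks whether these genes differed between cords of imiquimod and vehicle mice. It was made with limma on log2(FPKM + 0.1), with p adjusted by Benjamini-Hochberg over all 16513 genes tested and a gene called where the adjusted p was under 0.05. Log2 changes are imiquimod minus vehicle on that scale, with their standard error (SE), and understate the change of low genes.

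In imiquimod cords 9 of the 31 members were called higher and 0 lower. Of all genes tested, 8.74% were called higher and 5.34% lower, so the 29.0% of members called higher stands above the share of all genes. At a share of 5.34%, few lower calls would be found among 31 genes, so 0 lower says little about the members. The members were chosen with earlier results of these data known, so this comparison of shares is a description and was not tested. All 9 were general members (42.9% of the 21), and they were the transcription factors Maff, Atf3, Junb and Jund, the phosphatases Dusp5 and Dusp6, and the early response genes Ier2, Ier3 and Ier5. Ratios of mean FPKM, imiquimod over vehicle, ran from 1.43 for Dusp6 and Ier5 to 3.75 for Atf3 over these 9, with Junb at 2.01 and Ier2 at 1.98. Of the 10 neuronal members 0 were called in either direction by limma, 1 (Arc) had an unadjusted p under 0.05, and 0 were called by voom on the recovered fragments. Voom with quality weights called Arc lower (adjusted p = 0.0383), as did limma with the length and GC trend removed (0.0493). At shares of 8.74% and 5.34%, few calls would be found among 10 genes, so 0 called says little about them. Whether the general and the neuronal members differ from each other was not tested.

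Counted by groups that do not overlap, 13 of the 21 general members had every imiquimod library above every vehicle library, against 19.8% of all genes tested, and 0 had every imiquimod library below. Among the 10 neuronal members 0 lay wholly above and 2, Arc and Homer1, wholly below, against 18.0% of all genes tested. The median log2 change was 0.59 over the general members (range -0.08 to 1.74, 19 of 21 above 0) and 0.002 over the neuronal members (range -0.40 to 0.62, 5 of 10 above 0). Over all genes tested it was -0.01.

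**Figure D1:**
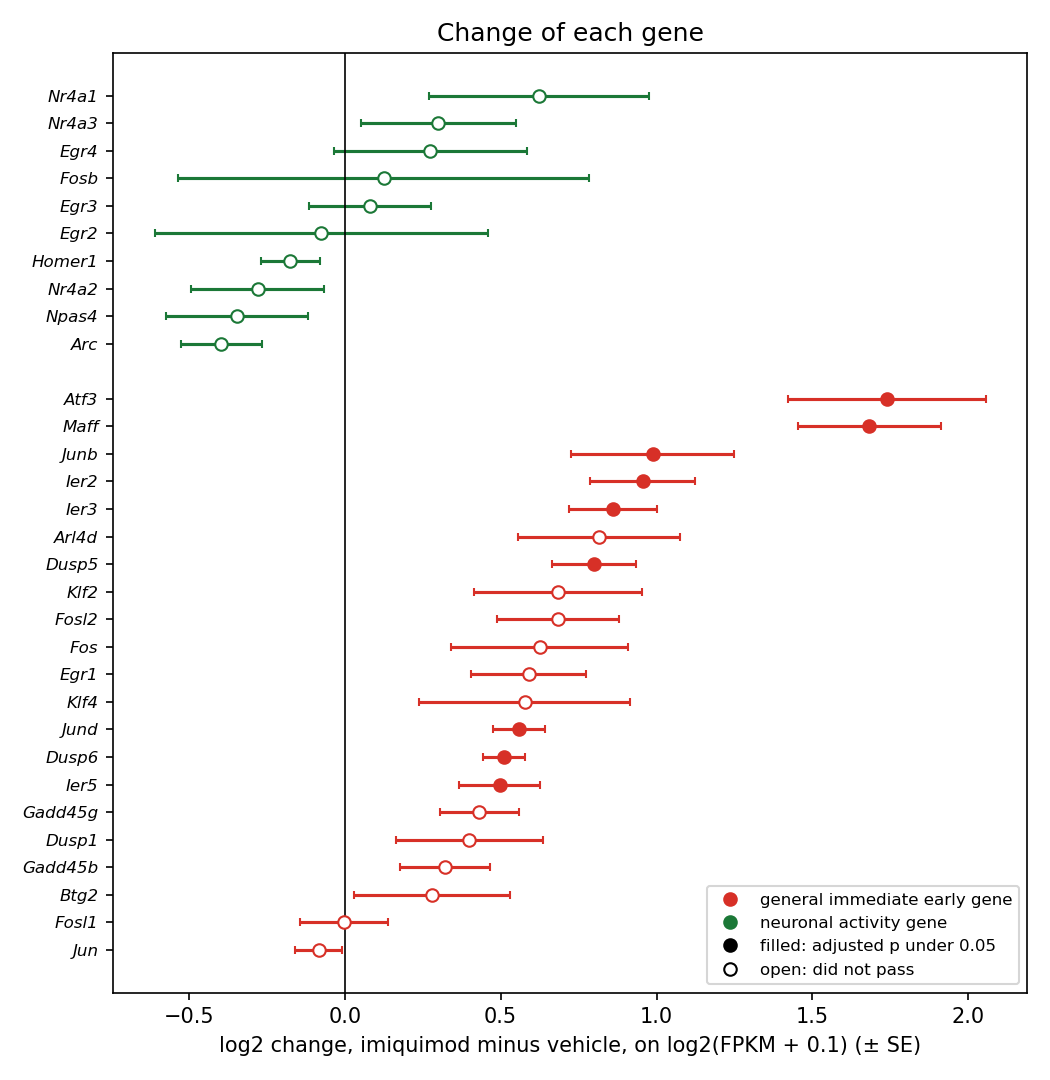
Log2 change of each of the 31 members, imiquimod minus vehicle on the log2(FPKM + 0.1) scale (horizontal axis), with 1 SE of the limma fit to each side as bars and 3 libraries per group, neuronal members above and general members below. Filled points are the 9 members called, all general, from 0.50 for Ier5 to 1.74 for Atf3, and the neuronal members lie on both sides of 0.

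The 2 members with the largest change were both stress-inducible leucine zipper factors. Maff (ENSMUSG00000042622, chr15:79346621-79359076, plus strand), a small Maf protein that lacks an activation domain of its own, measured 1.48, 2.13 and 1.83 FPKM in vehicle replicates 1, 2 and 3 and 6.30, 4.31 and 7.87 in imiquimod replicates 1, 2 and 3. The lowest imiquimod cord lay above the highest vehicle cord, and the means (1.81 ± 0.324 and 6.16 ± 1.78 FPKM, SD, n = 3 each) differ 3.40-fold. The log2 change was 1.68 ± 0.23 (limma adjusted p = 0.00597), and Maff was called in all 17 alternative analyses. Atf3 (ENSMUSG00000026628, chr1:191170296-191218039, minus strand), a CREB family member known as a marker of injured neurons and of stressed cells of many types, measured 0.498, 0.668 and 0.926 FPKM in vehicle and 2.97, 1.58 and 3.30 in imiquimod cords. Its vehicle values rest on 19, 25 and 39 fragments and its imiquimod values on 132, 76 and 167, with no overlap. The log2 change was 1.74 ± 0.32 (limma adjusted p = 0.0158). The Atf3 call ended without vehicle replicate 1 (adjusted p = 0.0580), vehicle replicate 2 (0.0550), imiquimod replicate 1 (0.0568) and imiquimod replicate 3 (0.0533).

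Among the AP-1 proteins, dimers of Fos and Jun family members, both Jun relatives Junb and Jund rose while values of Jun itself did not separate the groups. Jund (ENSMUSG00000071076, chr8:70698949-70700616, plus strand), the Jun protein present in resting cells, was the most abundant member per length, at 34.5, 33.0 and 35.2 FPKM in vehicle and 56.0, 45.9 and 49.8 in imiquimod cords. The groups did not overlap, the log2 change was 0.56 ± 0.08 (limma adjusted p = 0.00790) and Jund was called in all 17 alternatives. Junb (ENSMUSG00000052837, chr8:84974484-84978718, minus strand), the most strongly inducible of the Jun proteins, measured 8.52, 9.50 and 13.9 FPKM in vehicle cords and 20.8, 15.1 and 28.4 in imiquimod cords. Vehicle replicate 3 and imiquimod replicate 2 were 13.9 and 15.1 FPKM, so the groups were apart by a narrow gap. The log2 change of Junb was 0.99 ± 0.26 (limma adjusted p = 0.0490), near the threshold: the call held in 9 of 17 alternatives and ended without each library in turn except imiquimod replicate 2, with adjusted p of 0.158, 0.141 and 0.0526 without vehicle replicates 1, 2 and 3, and 0.115 and 0.112 without imiquimod replicates 1 and 3. Jun, at 19.2 ± 0.615 FPKM in vehicle and 18.1 ± 1.46 in imiquimod cords (SD, n = 3 each), had a log2 change of -0.08 ± 0.08, with a 95% interval of -0.26 to 0.09 (limma adjusted p = 0.494). With the length and GC trend removed, the log2 change of Jun was -0.21 ± 0.06, also not called (limma adjusted p = 0.0562).

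Fos, the classic marker of stimulated neurons, was not called. It measured 7.90, 8.12 and 14.4 FPKM in vehicle and 14.2, 11.6 and 20.6 in imiquimod cords, and vehicle replicate 3 lay above imiquimod replicates 1 and 2. Its log2 change was 0.63 ± 0.28, with a 95% interval of -0.05 to 1.30 (limma adjusted p = 0.192), so neither no change nor a doubling lies outside it. Fosl2, a Fos relative active in glia and other non-neuronal cells too, ran from 1.18 to 1.39 FPKM in vehicle and from 1.71 to 2.85 in imiquimod cords without overlap, and just missed the threshold (log2 change 0.68 ± 0.20, limma adjusted p = 0.0610). Fosl1 had a log2 change of -0.0036 ± 0.14 (limma adjusted p = 0.990), but its exons share up to 1055 bases with Ccdc85b on the other strand, a gene at 151 to 189 FPKM. With the strand setting not given, the Fosl1 value of 3.14 to 4.38 FPKM may hold reads of that neighbour. Junb likewise shares 173 exon bases with Prdx2, at 69.5 to 85.2 FPKM, and Jun shares 232 with Junos, at 0.384 to 0.662 FPKM.

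The phosphatases, which remove phosphate from MAP kinases and so close the loop, had 2 of 3 members called higher, against 8.74% of all genes tested. The other MAP kinase feedback genes, given below, had 1 of 18 called higher and 1 lower. Dusp6 (ENSMUSG00000019960, chr10:99263231-99267489, plus strand), which acts on ERK in the cytoplasm, varied least among the called members. It measured 8.84, 8.74 and 8.96 FPKM in vehicle and 12.7, 11.9 and 13.5 in imiquimod cords, and had the smallest p of all 31 members (log2 change 0.51 ± 0.07, limma adjusted p = 0.00530, called in all 17 alternatives). Dusp5 (ENSMUSG00000034765, chr19:53529109-53542431, plus strand), the nuclear ERK phosphatase, measured 1.39, 1.07 and 1.24 FPKM in vehicle and 2.08, 2.17 and 2.40 in imiquimod cords, again without overlap. The log2 change of Dusp5 was 0.80 ± 0.13 (limma adjusted p = 0.0119), and it was called in 16 of 17 alternatives. An antisense gene with no value in the files shares 547 bases with Dusp5 exons. Dusp1, which also acts on p38 and JNK, ran from 12.5 to 17.1 FPKM in vehicle and from 14.4 to 26.6 in imiquimod cords, overlapping, and was not called (log2 change 0.40 ± 0.24, limma adjusted p = 0.301).

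The 3 early response genes of the Ier group were all called higher, against 8.74% of all genes tested. Ier3 (ENSMUSG00000003541, chr17:35821684-35822923, plus strand), which is known to modulate cell survival and ERK signalling, measured 7.99, 8.44 and 8.91 FPKM in vehicle and 17.5, 12.2 and 17.1 in imiquimod cords (log2 change 0.86 ± 0.14, limma adjusted p = 0.0110). Ier2 (ENSMUSG00000053560, chr8:84661331-84662852, minus strand), a nuclear protein induced by serum and growth factors, measured 4.68, 5.37 and 5.88 FPKM in vehicle and 11.5, 7.96 and 12.1 in imiquimod cords (log2 change 0.96 ± 0.17, limma adjusted p = 0.0143). In both genes imiquimod replicate 2 was the lowest of its group and still above every vehicle cord. Ier5 (ENSMUSG00000056708, chr1:155096361-155099636, minus strand), a relative of Ier2, measured 5.50, 5.48 and 5.23 FPKM in vehicle and 9.33, 6.47 and 7.45 in imiquimod cords (log2 change 0.50 ± 0.13, limma adjusted p = 0.0482). Ier5 was the least stable call of the 9, held in 6 of 17 alternatives. It ended without each library except imiquimod replicate 2: the adjusted p was 0.134, 0.124 and 0.142 without vehicle replicates 1, 2 and 3, and 0.0567 and 0.104 without imiquimod replicates 1 and 3. The Ier3 call ended without vehicle replicate 1 (0.0511), and the Ier2 call without vehicle replicate 1 (0.0588), vehicle replicate 2 (0.0501) and imiquimod replicate 1 (0.0503).

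The remaining general members were not called. Egr1, a zinc finger factor induced by growth factors and by neuronal firing alike, measured 7.43, 8.93 and 9.70 FPKM in vehicle and 11.9, 10.8 and 17.3 in imiquimod cords without overlap (log2 change 0.59 ± 0.19, 95% interval 0.15 to 1.03, limma adjusted p = 0.0795). Groups also lay apart for Gadd45g, a stress sensor that binds MAP kinase kinase kinases (24.7 to 26.8 FPKM in vehicle, 28.1 to 39.9 in imiquimod cords, limma adjusted p = 0.0660), and for Arl4d, a small GTPase (7.97 to 12.5 and 13.8 to 26.4 FPKM, limma adjusted p = 0.0830). Klf2 and Klf4, zinc finger factors prominent in endothelium, had log2 changes of 0.68 ± 0.27 and 0.58 ± 0.34 with overlapping groups (limma adjusted p = 0.141 and 0.298). Gadd45b (0.32 ± 0.14, limma adjusted p = 0.188) and the antiproliferative gene Btg2 (0.28 ± 0.25, limma adjusted p = 0.490) also overlapped between groups.

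**Figure D2:**
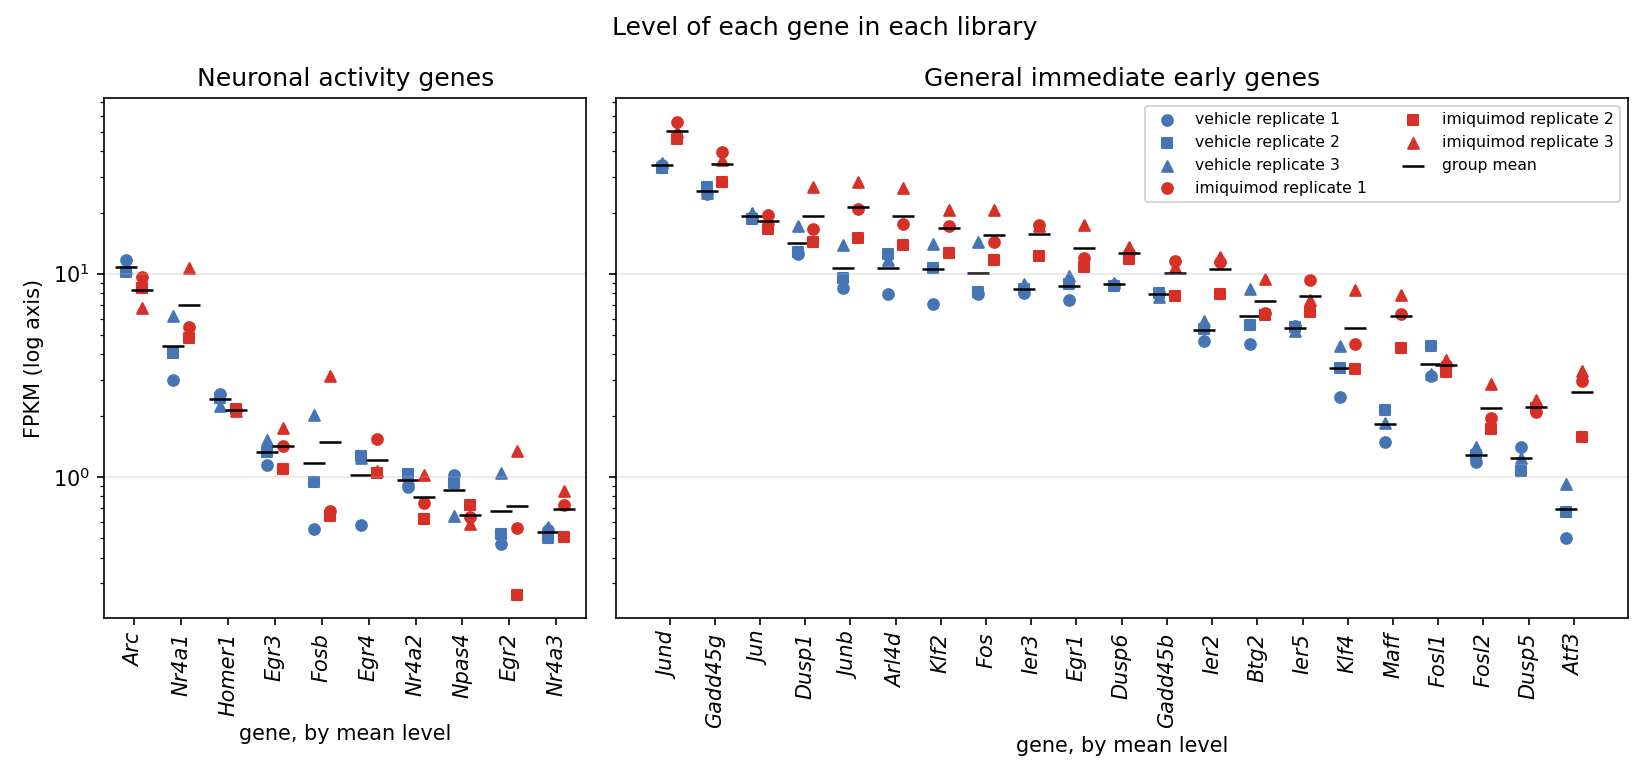
FPKM of each member in each of the 6 libraries on a log axis, 1 point per library, coloured by group and shaped by replicate, with the group mean as a dash, in a panel for neuronal and a panel for general members, each ordered by mean level. Jund is highest at 33.0 to 56.0 FPKM, and most neuronal members lie near 1 FPKM.

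Among the 10 neuronal members, Arc lay closest to the threshold. Arc, whose protein acts in synaptic plasticity at glutamatergic synapses and whose transcription follows firing closely, was the only one whose unadjusted p was under 0.05. It measured 11.6, 10.2 and 10.7 FPKM in vehicle and 9.61, 8.46 and 6.77 in imiquimod cords, so every imiquimod cord was below every vehicle cord. The log2 change was -0.40 ± 0.13 (95% interval -0.70 to -0.09) and was not called (limma adjusted p = 0.0904). It passed the threshold in 2 of 17 alternatives, with the length and GC trend removed (adjusted p = 0.0493) and by voom with quality weights (0.0383). Homer1, a postsynaptic scaffold protein, measured 2.57, 2.45 and 2.24 FPKM in vehicle and 2.13, 2.15 and 2.11 in imiquimod cords, also apart (log2 change -0.17 ± 0.09, limma adjusted p = 0.261). With the length and GC trend removed, the log2 change of Homer1 was -0.019 ± 0.10 (limma adjusted p = 0.917). The cause of that difference between fits was not tested. The gene-level value of Homer1 pools the activity-induced short form with the constitutive long forms, so it says little about the short form alone. Npas4, a transcription factor induced by calcium entry in neurons and hardly by other stimuli, measured 1.02, 0.930 and 0.640 FPKM in vehicle and 0.636, 0.723 and 0.585 in imiquimod cords. The Npas4 values rest on 52 to 74 fragments per library and the groups overlapped (log2 change -0.35 ± 0.23, 95% interval -0.88 to 0.19, limma adjusted p = 0.352).

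The nuclear receptors Nr4a1, Nr4a2 and Nr4a3, which act without a known ligand, had estimates on both sides of 0, none called. Nr4a1 ran from 2.98 to 6.16 FPKM in vehicle and from 4.80 to 10.6 in imiquimod cords (log2 change 0.62 ± 0.35, limma adjusted p = 0.281). Nr4a3 had 0.30 ± 0.25 and Nr4a2 -0.28 ± 0.21 (limma adjusted p = 0.458 and 0.423), and both were at or below 1.03 FPKM in every library. Of the Egr relatives, Egr4 had a log2 change of 0.28 ± 0.31 and Egr3 one of 0.08 ± 0.20 (limma adjusted p = 0.589 and 0.814).

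Egr2 and Fosb had the widest intervals of the 31 members. Egr2, which also drives myelination in Schwann cells, measured 0.466, 0.525 and 1.04 FPKM in vehicle and 0.557, 0.263 and 1.34 in imiquimod cords (log2 change -0.08 ± 0.53, 95% interval -1.34 to 1.19, limma adjusted p = 0.941). Both Egr2 and the Schwann cell marker sum, a list that holds Egr2, were lowest in imiquimod replicate 2. The marker sum was 231 to 340 FPKM in vehicle cords and 151, 50.9 and 246 in imiquimod replicates 1, 2 and 3, and its part in the Egr2 values was not tested. Fosb, the source of the long-lived isoform delta FosB, measured 0.552, 0.940 and 2.01 FPKM in vehicle and 0.676, 0.638 and 3.13 in imiquimod cords, so replicate 3 of each group stood apart (log2 change 0.12 ± 0.66, 95% interval -1.44 to 1.69, limma adjusted p = 0.920).

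Most members varied more between mice of 1 group than the median gene. The median within-group SD on the log2 scale was 0.257 over the 31 members and 0.141 over all genes tested, and 27 of the 31 lay above the latter. Fosb, with an SD of 1.05, exceeded 96.9% of the genes tested, and Egr2, with 0.80, exceeded 95.4%. At the other end were Dusp6 (0.06), Homer1 (0.07) and Jun (0.09). The same libraries were high and low across members. Imiquimod replicate 2 was the lowest of its group in 27 of 31 members (20 of 21 general, 7 of 10 neuronal), against 33.2% of all genes tested. Vehicle replicate 1 was the lowest of its group in 21, and replicate 3 of both groups was the highest in 16, against 10.1% of all genes tested. Those 16 include Fos, Fosb, Egr1, Egr2, Egr3, Junb, Ier2, Atf3, Nr4a1 and Dusp1. Members measured in 1 library share its animal, dissection and depth, so these counts are not 31 independent observations.

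**Figure D3:**
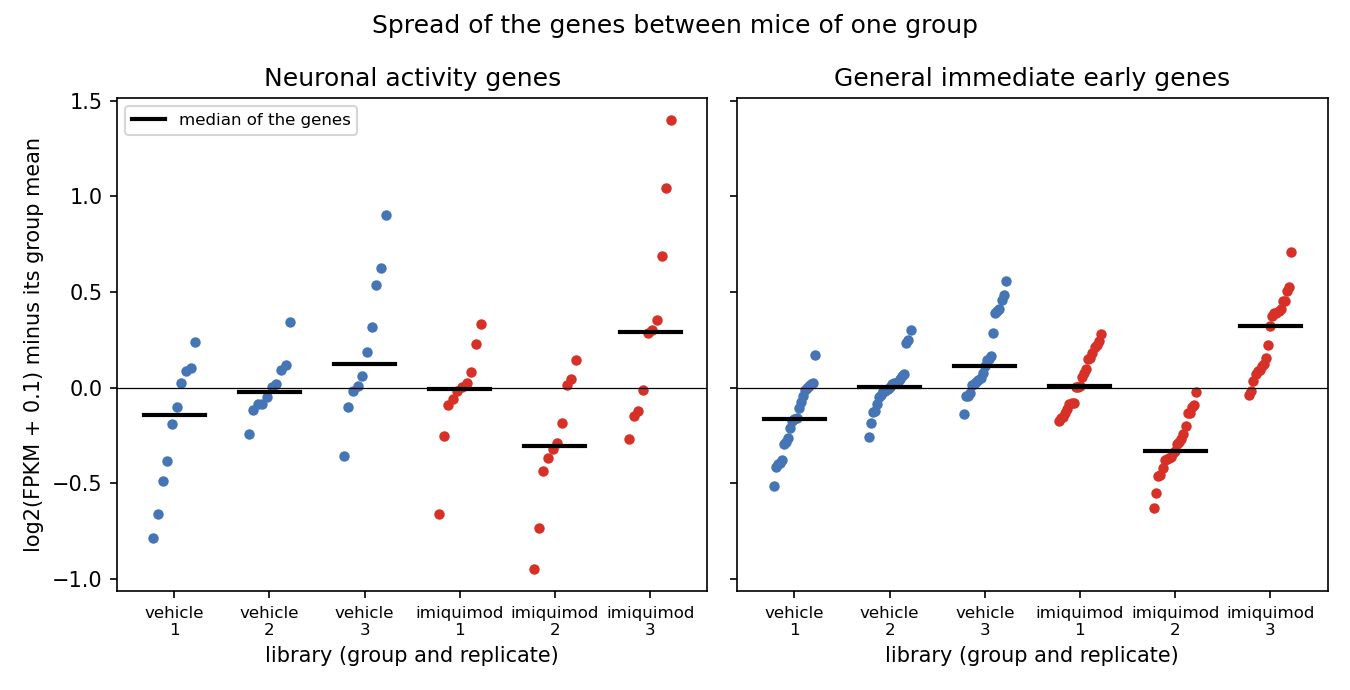
Each point is 1 member in 1 library, as its log2(FPKM + 0.1) value minus the mean of its own group, sorted within the library, with the median as a bar and 1 panel for each class of members. The medians in imiquimod replicates 2 and 3 are -0.31 and 0.29 for neuronal and -0.33 and 0.32 for general members.

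Leaving out imiquimod replicate 2, the low library, gave 14 members called, the 9 above with Arl4d, Egr1, Fosl2, Gadd45b and Gadd45g. Leaving out vehicle replicate 1 gave 4 (Dusp5, Dusp6, Jund and Maff), vehicle replicate 2 gave 5, vehicle replicate 3 gave 7, imiquimod replicate 1 gave 5 and imiquimod replicate 3 gave 6. Those 4 members were called without each library in turn.

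Markers of several other cell types moved with the groups, with the order of the members in the imiquimod libraries, or with both. In bulk tissue, fewer cells of a type and less RNA per cell cannot be told apart. Monocyte and macrophage markers summed to 3.41 to 8.22 FPKM in vehicle cords and to 36.8, 13.0 and 46.4 in imiquimod replicates 1, 2 and 3, with 4 of 7 called higher (Ccr2, Ly6c2, Ms4a7 and Plac8) and 2 lower (Cd163 and Mrc1). T and NK cell markers summed to 2.48 to 3.07 FPKM in vehicle cords and to 21.5, 11.6 and 23.3 in imiquimod replicates 1, 2 and 3, with 4 of 5 tested called higher. Endothelial markers summed to 115 to 130 FPKM in vehicle cords and to 247, 220 and 225 in imiquimod replicates 1, 2 and 3 (4 of 7 called higher, 1 lower). Microglial markers summed to 98.1 to 110 FPKM in vehicle cords and to 153, 155 and 118 in imiquimod replicates 1, 2 and 3 (2 of 8 called higher, 1 lower). Meningeal fibroblast markers summed to 34.0 to 62.6 FPKM in vehicle cords, with 0 of 7 called. In imiquimod replicates 1, 2 and 3 they summed to 40.9, 16.5 and 98.9 FPKM. Imiquimod replicate 2, the lowest of its group in 20 of 21 general members, was thus the lowest in the monocyte, T and NK cell, endothelial and meningeal fibroblast sums. It was also the lowest in the Schwann cell sum given above, and the highest in the microglial sum and in the neuronal sum given below. In the monocyte, T and NK cell, endothelial, microglial and meningeal fibroblast lists 0 markers were at 0 in all 6 libraries. The part of these cells in the rise of the general members was not tested.

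Neuronal marker sums were lower in every imiquimod cord than in any vehicle cord. The sum was 1619 to 1723 FPKM in vehicle cords and 1402, 1527 and 1185 in imiquimod replicates 1, 2 and 3 (two-sided exact permutation p = 0.1, the smallest possible), with 2 of 11 called lower (Elavl3 and Rbfox3) and a median log2 change of -0.27. Motor neuron markers summed to 81.6 to 87.4 and 40.8 to 70.4 FPKM, with 2 of 5 tested called lower. The oligodendrocyte marker sum given above was also lower in every imiquimod cord than in any vehicle cord (two-sided exact permutation p = 0.1). Of its markers 6 of 6 were below 0 in log2 change, but 0 were called lower by limma. An unadjusted p under 0.05 was found for 2 of the 6. The lowest imiquimod value of Arc and of the neuronal marker sum fell in the same cord, replicate 3. The part of neuronal RNA in the Arc, Homer1 and Npas4 values was not tested.

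The pathway genes above and below the members were read from further lists, each against 8.74% of all genes called higher and 5.34% lower. Upstream kinases and transcription factors had 6 of 35 called higher and 1 lower, with a median log2 change of 0.03. The called genes were Map2k1, the kinase that activates ERK (log2 change 0.52 ± 0.06, limma adjusted p = 0.00321), the SRF partner Elk3 (1.02 ± 0.13, 0.00427), the cyclic AMP responsive factor Crem (0.70 ± 0.14, 0.0195), Srf itself (0.36 ± 0.07, 0.0222) and 2 others, with Rps6ka5 lower (-0.40 ± 0.10, 0.0475). Map2k1 and Elk3 were called in all 17 alternatives. Without vehicle replicate 1 the adjusted p was 0.0770 for Crem, 0.0894 for Srf and 0.172 for Rps6ka5. Those 3 calls also ended without vehicle replicates 2 and 3 and imiquimod replicate 3, and that of Rps6ka5 without each of the 6 libraries.

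Further general immediate early genes, outside the members, had 6 of 31 called higher and 1 lower, with 28 of 31 above 0 and a median log2 change of 0.54. The called genes included Cebpd (1.22 ± 0.23, limma adjusted p = 0.0172), Sgk1, a kinase also induced by glucocorticoids (1.36 ± 0.29, 0.0251), Trib1 (0.81 ± 0.16, 0.0218) and the Notch target Hes1 (0.40 ± 0.09, 0.0304), with Rhob lower (-0.27 ± 0.07, 0.0496). Each of these 5 calls ended when some single libraries were left out. The Cebpd call ended without each vehicle replicate and imiquimod replicate 1 (adjusted p up to 0.0636), and that of Sgk1 without vehicle replicate 3 and imiquimod replicates 1 and 3 (up to 0.0741). Trib1 was lost without vehicle replicates 1 and 2 and imiquimod replicates 1 and 3 (up to 0.0783), Hes1 without each library but imiquimod replicate 2 (up to 0.117) and Rhob without each but imiquimod replicate 1 (up to 0.183). The other MAP kinase feedback genes had 1 of 18 called higher, the phosphatase Dusp2 (1.18 ± 0.19, 0.010), and 1 lower, Spred1 (-0.22 ± 0.06, 0.0449), shares near or below those of all genes. The Spred1 call ended without each library but imiquimod replicate 1 (up to 0.175). Relatives of the members had 0 of 13 called higher by limma and 1 lower, Homer2 (-0.79 ± 0.15, 0.0173), whose call ended without each vehicle replicate (up to 0.0740). An unadjusted p under 0.05 was found for 3 of the 13, 1 of them with a log2 change above 0 and 2, Homer2 included, below 0.

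Late activity-response genes, which follow the first wave in neurons and act at synapses or as secreted peptides, had 5 of 22 called higher and 2 lower, with a median log2 change of 0.24. Higher were the neuropeptide convertase Pcsk1 (0.76 ± 0.09, limma adjusted p = 0.00405, called in all 17 alternatives), Plk2 (0.53 ± 0.09, 0.0136), Rgs2 (0.46 ± 0.08, 0.0147), the synaptic pentraxin Nptx2 (1.19 ± 0.22, 0.0165), and 1 other. Lower were Acan, the core protein of perineuronal nets (-0.75 ± 0.16, 0.0261), and Mfap3l (-0.57 ± 0.14, 0.0397). Without vehicle replicate 1 the adjusted p was 0.0578 for Plk2, 0.0674 for Rgs2, 0.0524 for Nptx2, 0.0964 for Acan and 0.136 for Mfap3l. The Rgs2 call also ended without vehicle replicate 2, the Nptx2 call without imiquimod replicates 1 and 3, and the Acan and Mfap3l calls without every library but imiquimod replicate 2. This list therefore held called genes in both directions while the neuronal members held 0, and the difference between these lists was not tested.

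Partners of AP-1 had 3 of 16 called higher and 0 lower, among them Atf5 (1.23 ± 0.12, limma adjusted p = 0.00203) and Atf4 (0.78 ± 0.11, 0.00573), both called in all 17 alternatives. Atf4 target genes of the integrated stress response, a list that shares Atf5, had 5 of 9 tested called higher, with Ddit3 (1.34 ± 0.09, 0.000677) and Chac1 (0.87 ± 0.12, 0.00555) called in all 17 alternatives and Trib3 (1.06 ± 0.26, 0.0391) lost without each of the 6 libraries (up to 0.117). Atf3, a member above, is also known as an Atf4 target. Glucocorticoid-responsive genes had 4 of 14 called higher and 0 lower, with Plin4 (2.11 ± 0.36, 0.0120) and Cdkn1a (1.13 ± 0.19, 0.0127) called in all 17 alternatives, then Mt1 (0.54 ± 0.10, 0.0191, lost without vehicle replicates 1 and 2, up to 0.0964) and Sgk1. Of 8 heat shock genes 1 was higher, Hspb1 (1.61 ± 0.16, 0.00233), and the list's median log2 change was -0.10. The part of stress hormone or of the integrated stress response in the values of the members was not tested.

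**Figure D4:**
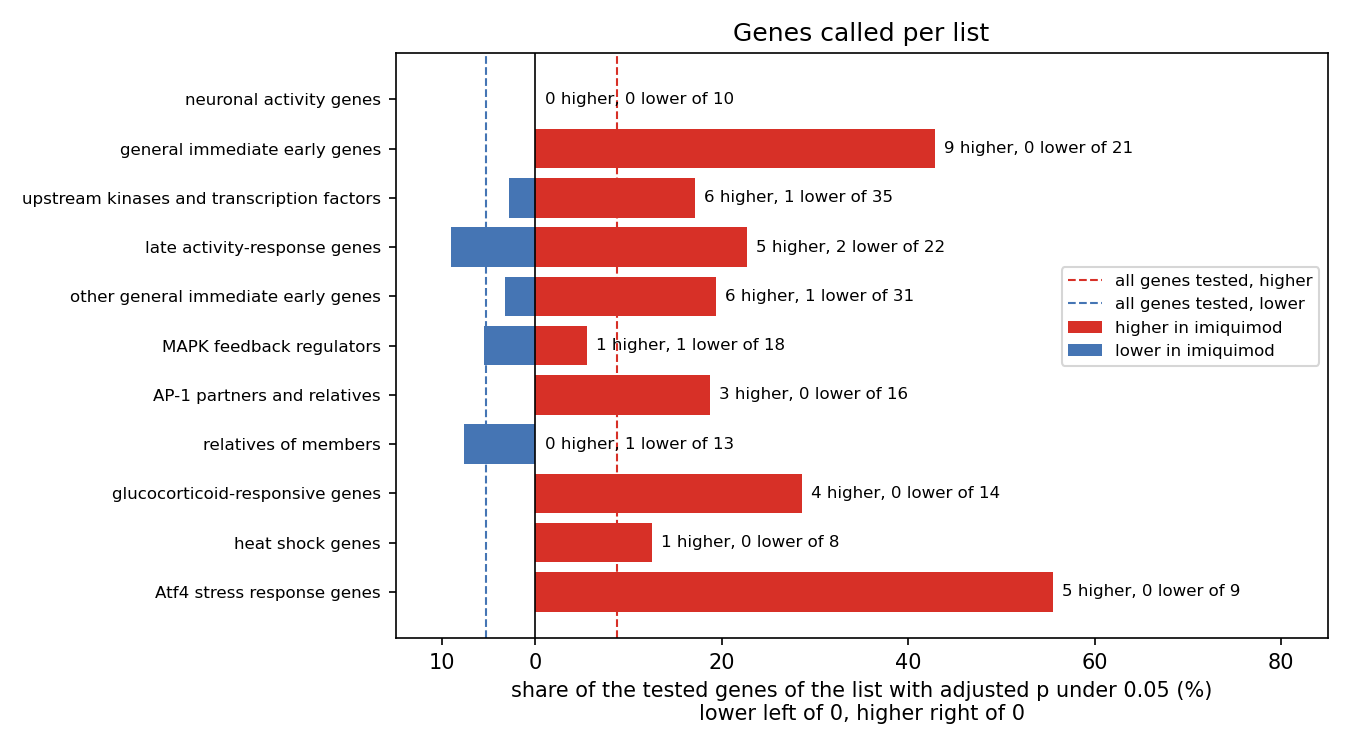
Percent of the tested genes of each list called higher (right of 0) or lower (left of 0) in imiquimod cords by limma, with dashed lines at the shares of all genes tested, 8.74% higher and 5.34% lower. The general members had 9 of 21 called higher, the neuronal members 0 of 10, and Atf4 stress response genes 5 of 9.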

How the data were processed

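The authors deposited FPKM values of 54532 genes in each library. The submitters' processing notes name mm10, DESeq2 1.16.1, featureCounts 1.5.0-p3 and HISAT2 2.0.5 without saying what each did. The strand setting and the annotation release used are not given in the sources. A names table matched 54409 identifiers, and GENCODE M21 gave coordinates and exon lengths for 54495. Fragments could be recovered, since FPKM times exon length, divided by a constant of the library, was whole within 0.05 fragments for at least 97.4% of values under 1000. No pair of libraries held identical values.

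limma 3.58.1 (R 4.3.3) with a mean-variance trend was fitted without covariates to log2(FPKM + 0.1). It took the 16513 genes with a mean of at least 0.5 FPKM in either group. The fit was tested on simulated data that gave every gene the same dispersion and left genes with few fragments unchanged. That simulation does not cover members with few fragments or a wide spread between mice. P-values in the text are Benjamini-Hochberg adjusted over all genes tested unless named otherwise. Single library measures were compared by exact permutation, which cannot go below 0.1. Other steps used matplotlib 3.10.9, SciPy 1.17.1, NumPy 2.4.6 and pandas 2.3.3 in Python 3.11.15. Replicates are separate mice.

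All members are accounted for; those called, Fos, Junb, Egr1, Arc, Npas4 and Homer1 get every library value, and each further list names up to 4 genes per direction by smallest p, apart from 1 gene that is not reported here. The members and lists were chosen with earlier results of these data known. The 17 alternatives were pseudocounts of 1 and 0.01, no filter, a mean of at least 1 FPKM over all libraries, each library left out, a replicate block, equal medians, removal of a length and GC trend with and without the block, and voom on recovered fragments with and without quality weights; a mean of at least 0.5 FPKM over all libraries was added after seeing the data.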

Additional observations from a re-analysis of the deposited data

How the results depend on the processing

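Of all genes tested 2326 were called (1444 higher, 882 lower). Leaving out 1 library gave 847 to 2986 (660 to 1690 higher, 187 to 1296 lower), and the count lower was 508 with no filter. With medians made equal, the split was 1146 higher and 1022 lower. Members called were 9, 4 to 14 with a library left out and 14 by voom with quality weights; general members called higher were 4 to 14 with a library left out. Neuronal members called lower were 1, Arc, with the length and GC trend removed and by voom with quality weights, and 0 neuronal members were called higher in any of the 17 alternatives.

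Over all genes tested, samples with the same replicate number did not deviate together (correlations of deviations 0.0186, -0.0970 and -0.0331). Of the 6 libraries, 0 correlated best with their own number, so the numbers were not taken to pair the mice. Among the members, replicate 3 of both groups was the highest of its group in 16 of 31, against 10.1% of all genes tested. The libraries lowest in most members had different numbers, vehicle replicate 1 (21 of 31) and imiquimod replicate 2 (27 of 31). The SE of Fos was 0.28 without and 0.095 with a replicate block. With the replicate block 1330 genes were called (894 higher, 436 lower), and 9 members, with Fos gained (adjusted p = 0.0266) and Ier5 lost (0.0686).

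The estimates of 5 members lay near 0 and changed sign. Egr2 was 0.00527 with a pseudocount of 1 and -0.60 to 0.40 with a library left out. Egr3 was -5.51e-04 with the length and GC trend removed, with and without the block, and -0.069 to 0.24 with a library left out. Fosl1 was 8.17e-04 by voom and -0.086 to 0.15 with a library left out, Egr4 -0.055 to 0.45 and Fosb -0.57 to 0.58. The cause was not tested. Dusp6, Jund and Maff were called in all 17 alternatives, Dusp5 and Ier3 in 16, Ier2 in 14, Atf3 in 13, Junb in 9 and Ier5 in 6; Dusp5 was lost with the length and GC trend removed and the block (adjusted p = 0.0639). Imiquimod libraries got lower quality weights from voom (0.475 to 0.646) than vehicle libraries (1.65 to 1.85). Depth limits the low members: the fewest fragments in a library were 19 for Atf3, 20 for Egr2 and 22 for Egr4, and Npas4 had 52 to 74.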
